A study of Mus musculus with 6 samples.

Results

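The subject here is a set of 38 mouse genes for DNA replication and for the supply of deoxynucleotides, followed over 6 whole-transcript arrays. The members were chosen by name, as the rows of the deposited table whose probe annotation gives 1 of the 38 symbols. All 38 had a row of their own, out of 19938 genes with a row, and they lie on 14 chromosomes. The level of a gene is its log2 intensity, taken from the brightest row where a gene had several, which applied to Pcna and Tk1. A difference of 1 log2 unit is 2-fold.

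Each group was 1 array with no replicate. LN stroma was the fraction of adult C57BL/6JJcl lymph nodes (LN) sorted without culture as CD45- CD31- podoplanin+ VCAM-1+ cells. BLS12 and BLS4 are established stromal cell lines grown from BALB/cA lymph nodes, each measured with and without a goat polyclonal agonist antibody to the lymphotoxin β receptor (LTβR), given at 1 µg/ml for 2 days. MEF were C57BL/6JJcl fibroblasts cultured from embryos at E11.5-13.5. The unstimulated lines had no control antibody. LN stroma differed from MEF in culture, age and tissue and from the lines in culture and strain, and the lines differed from MEF in strain, age and tissue. These factors cannot be told apart. The labels gave no batch and did not say whether arrays came from separate cultures. The residual behind every p-value here is the disagreement of the 2 lines over the antibody, pooled over genes. It is not a spread between repeated cultures.

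A dividing cell copies its genome once per S phase. In G1 the origin recognition complex, with Cdc6 and Cdt1, loads the Mcm2-7 ring onto DNA, a step called licensing. In S phase Cdc45 and the GINS complex turn that ring into the active helicase, primase and the replicative polymerases build the new strands on the sliding clamp PCNA, and CAF-1 packs the copies into chromatin. Ribonucleotide reductase, thymidylate synthase and thymidine kinase supply the deoxynucleotides. Many of these genes are transcribed at the start of S phase under E2F factors, so their messages are scarce in resting cells such as most stromal cells of an adult lymph node. In bulk RNA, fewer cells in S phase and less RNA per cell cannot be told apart.

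Marker genes were read beside the labels. All 8 stromal markers lay at or above the array median on all 6 arrays, so this count does not tell the labels apart. Pdpn (podoplanin) stood at 10.20 and Vcam1 at 11.90 in LN stroma, which was sorted on these proteins. Of 8 lymphocyte markers 0 reached the median in LN stroma, with Ptprc (CD45) at 5.70 against an array median of 5.80. Of 7 endothelial markers 5 did, with Pecam1 (CD31) at 6.44 in LN stroma, against 4.82 to 5.08 in the lines and 4.73 in MEF. All 8 myeloid markers reached the median in MEF and 3 did on every other array. Their summed intensity was 606 in LN stroma, 1882 and 683 in antibody-treated and unstimulated BLS12, 737 and 727 in antibody-treated and unstimulated BLS4, and 2286 in MEF. The summed intensity of the endothelial markers was 663 in LN stroma, 278 to 332 in the lines and 666 in MEF, and that of the lymphocyte markers 299 in LN stroma, 196 to 246 in the lines and 232 in MEF. The part of these other cells in the results below was not tested.

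The replication genes were highest in unstimulated BLS12 and lowest in LN stroma or unstimulated BLS4. Of the 38 members, 34 (89.5%) had their highest level in unstimulated BLS12, 3 in MEF (Orc1, Pole and Rrm2) and 1 in antibody-treated BLS12 (Pold1). Over all 13166 genes at or above the median on at least 1 array, 20.8% were highest in unstimulated BLS12. LN stroma was the lowest array for 24 members (63.2%, against 32.2% of those genes), unstimulated BLS4 for 13 (34.2%, against 11.9%) and antibody-treated BLS12 for 1 (Pola1). The median of all 38 levels was 6.80 in LN stroma, 7.72 in antibody-treated and 8.33 in unstimulated BLS12, 7.07 in antibody-treated and 6.79 in unstimulated BLS4, and 7.60 in MEF. The span between a member's highest and lowest array had a median of 1.52 log2 units and ran from 0.48 in Rfc1 to 3.63 in Chaf1b, against a median span of 0.88 over the 13166 genes.

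**Figure D1:**
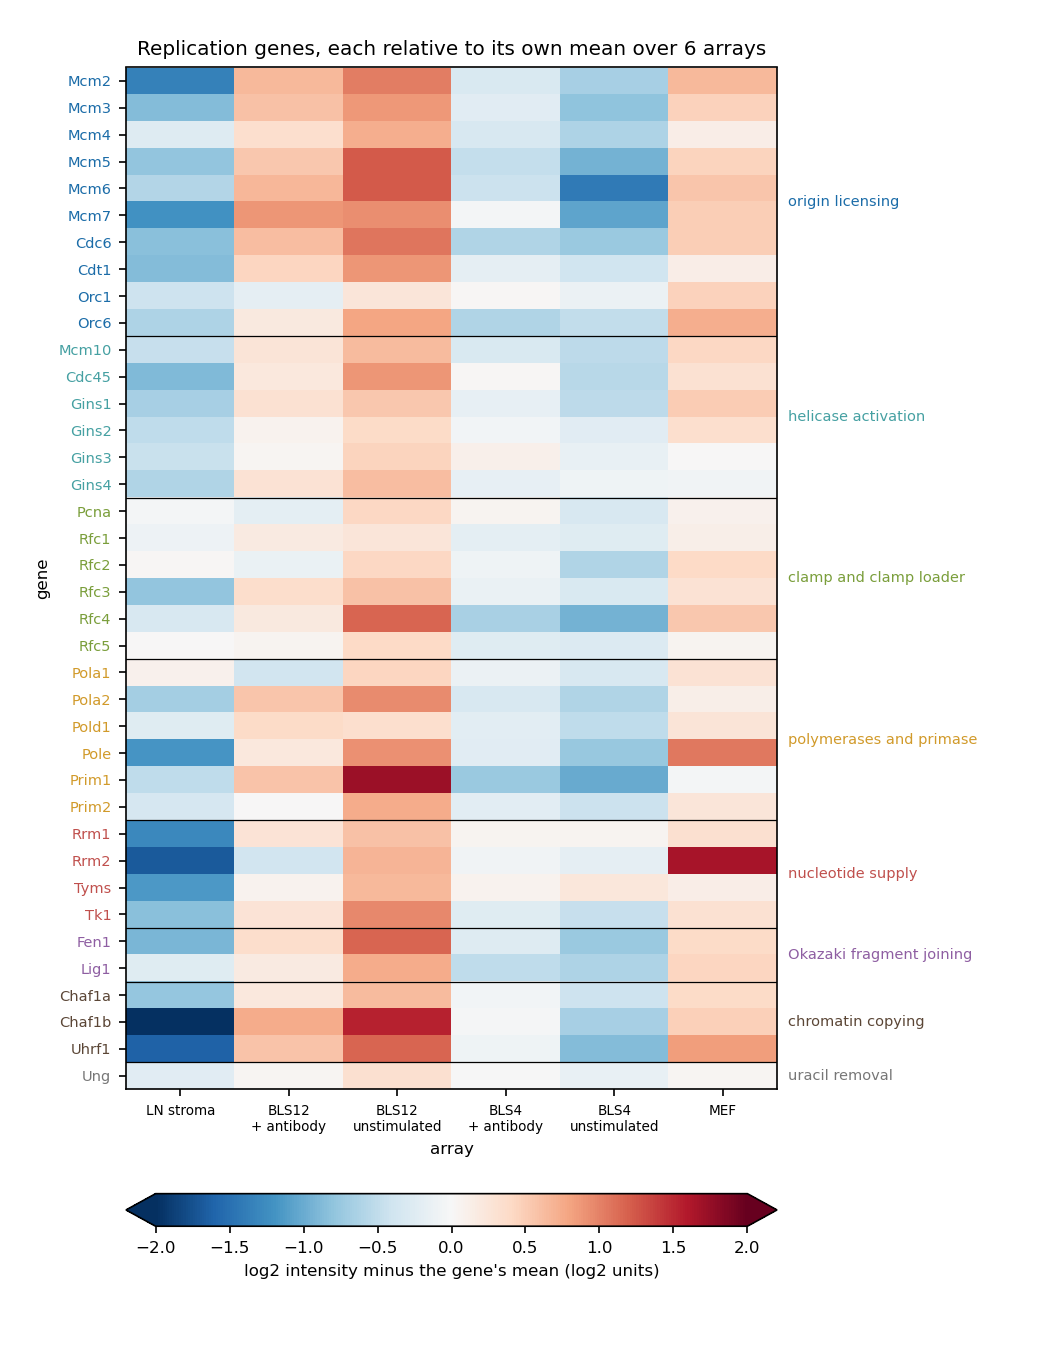
Log2 intensity of each of the 38 genes minus that gene's own mean over the 6 arrays (colour, log2 units, drawn to 2 units either way), with genes grouped by role down the page and the 6 arrays across it. Unstimulated BLS12 is the reddest column, highest for 34 genes, and LN stroma holds the bluest cells, lowest for 24 genes.

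Sequence letters in the promoters were not used in choosing the members. RefSeq promoters of GRCm38.p6, 300 bases from 250 before to 50 after an annotated start, were matched by symbol for 31 of the 38 members. The E2F letters TTTNNCGC, where each N was G or C, were searched on both strands, and overlapping matches were each counted. They were present for 13 of the 31 members (41.9%) and for 2.6% of all 27025 genes with a promoter. CCAAT or its complement ATTGG, the letters bound by NF-Y, was present for 19 members (61.3%) and 41.1% of all genes. TTTGAA or TTCAAA, the core of the element that many mitosis genes carry, was present for 4 members (12.9%) and 20.2% of all genes. In 20 mitosis genes with a promoter the E2F letters were present for 2, CCAAT or ATTGG for 17 and the mitosis element for 15. A match describes letters in the window and does not show binding. 4 promoters are shown, in lower case from 5′ to 3′ on the gene's strand, with E2F and CCAAT letters of either strand in capitals. Mcm6 and Mcm5 are 2 of the 6 members that were over 4-fold higher in unstimulated BLS12 than in unstimulated BLS4. With antibody all 6 were lower in BLS12 and higher in BLS4 than without it. They stayed higher in BLS12 than in BLS4. The others were Prim1, Chaf1b, Rfc4 and Uhrf1, of which only Uhrf1 had E2F letters. Whether the letters go with the line difference was not tested. Prim1 had the largest antibody difference in BLS12 on the rows used, and Rfc1 the narrowest span over the 6 arrays.
Mcm6: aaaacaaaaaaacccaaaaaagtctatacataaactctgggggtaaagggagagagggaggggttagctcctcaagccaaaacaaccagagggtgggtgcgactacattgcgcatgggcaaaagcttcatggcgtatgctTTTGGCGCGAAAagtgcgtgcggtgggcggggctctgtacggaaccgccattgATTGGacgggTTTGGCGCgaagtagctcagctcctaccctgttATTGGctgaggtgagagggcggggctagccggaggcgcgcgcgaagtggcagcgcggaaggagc
Mcm5: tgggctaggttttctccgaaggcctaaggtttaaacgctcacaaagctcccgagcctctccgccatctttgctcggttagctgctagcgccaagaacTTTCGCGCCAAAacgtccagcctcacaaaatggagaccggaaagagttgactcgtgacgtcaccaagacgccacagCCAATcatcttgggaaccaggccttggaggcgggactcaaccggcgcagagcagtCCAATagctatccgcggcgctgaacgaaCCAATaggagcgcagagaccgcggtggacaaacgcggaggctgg
Prim1: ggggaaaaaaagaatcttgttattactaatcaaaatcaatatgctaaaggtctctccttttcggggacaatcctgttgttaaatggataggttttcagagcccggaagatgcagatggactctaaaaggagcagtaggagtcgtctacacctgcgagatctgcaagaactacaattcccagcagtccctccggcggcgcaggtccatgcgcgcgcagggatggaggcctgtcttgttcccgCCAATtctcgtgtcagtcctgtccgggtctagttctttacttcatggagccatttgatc
Rfc1: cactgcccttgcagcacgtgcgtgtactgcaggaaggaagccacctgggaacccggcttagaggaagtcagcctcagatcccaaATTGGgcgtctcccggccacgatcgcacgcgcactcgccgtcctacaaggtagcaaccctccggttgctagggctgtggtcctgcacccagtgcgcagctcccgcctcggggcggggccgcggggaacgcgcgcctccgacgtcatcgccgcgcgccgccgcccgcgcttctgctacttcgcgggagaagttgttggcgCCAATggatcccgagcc
The windows are chr1:128359656-128359955 on the minus strand for Mcm6, chr8:75109259-75109558 on the plus strand for Mcm5, chr10:128014965-128015264 on the plus strand for Prim1 and chr5:65335590-65335889 on the minus strand for Rfc1. Mcm6 held 3 E2F matches, of which 2 overlap, and Mcm5 held 2 that overlap, while the Prim1 and Rfc1 windows held none. The first E2F match of Mcm6 began at base -110 from the start and that of Mcm5 at base -153.

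The 10 licensing genes had a median span of 1.83 log2 units. Mcm6, a subunit of the helicase ring, had the widest, with 7.80 in LN stroma, 9.05 and 9.62 in antibody-treated and unstimulated BLS12, 7.95 and 6.96 in antibody-treated and unstimulated BLS4, and 8.93 in MEF. Mcm2, a ring subunit that also holds histones, had 6.91 in LN stroma, 8.91 with and 9.30 without antibody in BLS12, 7.97 with and 7.61 without antibody in BLS4, and 8.92 in MEF. Mcm5 had 7.18 in LN stroma, 8.50 and 9.19 in antibody-treated and unstimulated BLS12, 7.49 and 7.02 in antibody-treated and unstimulated BLS4, and 8.40 in MEF. In these 3 subunits unstimulated BLS12 was highest, and unstimulated BLS4 or LN stroma was lowest. Mcm3 had 7.15 in LN stroma, 8.60 with and 8.88 without antibody in BLS12, 7.79 with and 7.22 without antibody in BLS4, and 8.48 in MEF. Mcm4 had 8.32 in LN stroma, 8.92 and 9.31 in antibody-treated and unstimulated BLS12, 8.27 and 7.96 in antibody-treated and unstimulated BLS4, and 8.71 in MEF. Mcm7 had 7.21 in LN stroma, 9.31 with and 9.36 without antibody in BLS12, 8.39 with and 7.37 without antibody in BLS4, and 8.91 in MEF. Mcm7 was the ring subunit whose BLS12 arrays lay closest together, 0.05 log2 units apart, while its BLS4 arrays were 1.03 apart.

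The loaders and origin proteins followed. Cdc6, the ATPase that recruits the ring, had 5.99 in LN stroma, 7.44 and 7.89 in antibody-treated and unstimulated BLS12, 6.22 and 6.09 in antibody-treated and unstimulated BLS4, and 7.32 in MEF. Cdt1, the partner that carries the ring to the origin, had 6.34 in LN stroma, 7.63 with and 8.09 without antibody in BLS12, 7.02 with and 6.80 without antibody in BLS4, and 7.34 in MEF. In both, the BLS12 arrays lay above the BLS4 arrays and LN stroma was lowest. Orc6, the smallest origin recognition subunit, had 7.34 in LN stroma, 8.15 and 8.74 in antibody-treated and unstimulated BLS12, 7.34 and 7.45 in antibody-treated and unstimulated BLS4, and 8.68 in MEF, with LN stroma level with antibody-treated BLS4. Orc1, the large ATPase subunit, had 4.27 in LN stroma, 4.51 with and 4.92 without antibody in BLS12, 4.71 with and 4.56 without antibody in BLS4, and 5.14 in MEF. Orc1 lay below the median on every array and was the only member left out of the tested genes, so its values lie in the dim part of each array.

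Among the 6 helicase activation genes Cdc45 had the widest span, with 6.09 in LN stroma, 7.18 and 7.85 in antibody-treated and unstimulated BLS12, 7.0 and 6.42 in antibody-treated and unstimulated BLS4, and 7.26 in MEF. Gins2, a subunit of the GINS complex, had the narrowest, 0.89 log2 units, with 6.81 in LN stroma, 7.39 with and 7.70 without antibody in BLS12, 7.28 with and 7.11 without antibody in BLS4, and 7.67 in MEF. Mcm10, which helps to start the assembled helicase, had 5.65 in LN stroma, 6.37 and 6.75 in antibody-treated and unstimulated BLS12, 5.80 and 5.58 in antibody-treated and unstimulated BLS4, and 6.52 in MEF. Its levels in LN stroma and unstimulated BLS4 were below their array medians. Gins1 had 5.16 in LN stroma, 6.13 with and 6.35 without antibody in BLS12, 5.65 with and 5.29 without antibody in BLS4, and 6.33 in MEF. In LN stroma and on both BLS4 arrays Gins1 lay below the array median. Gins4 had 7.53 in LN stroma, 8.41 and 8.75 in antibody-treated and unstimulated BLS12, 7.96 and 8.05 in antibody-treated and unstimulated BLS4, and 8.06 in MEF. Gins3 ran from 5.60 in LN stroma, below the array median, to 6.49 in unstimulated BLS12. LN stroma was lowest for all 4 GINS genes and for Cdc45, and unstimulated BLS4 was lowest for Mcm10.

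The clamp and its loader varied least of the roles with more than 1 gene, with a median span of 0.87. Rfc1, the large subunit of the loader, had 8.11 in LN stroma, 8.39 with and 8.45 without antibody in BLS12, 8.01 with and 7.97 without antibody in BLS4, and 8.32 in MEF. Rfc4, a small subunit, had the widest span of the 6 genes, with 6.91 in LN stroma, 7.41 and 8.39 in antibody-treated and unstimulated BLS12, 6.58 and 6.29 in antibody-treated and unstimulated BLS4, and 7.76 in MEF. Rfc3 had 6.24 in LN stroma, 7.38 with and 7.61 without antibody in BLS12, 6.90 with and 6.72 without antibody in BLS4, and 7.31 in MEF. Rfc3 was lowest in LN stroma, whereas Rfc1 and Rfc4 were lowest in unstimulated BLS4. Pcna, the clamp itself, ran from 9.73 in unstimulated BLS4 to 10.46 in unstimulated BLS12, Rfc2 from 7.50 to 8.51 and Rfc5 from 8.15 to 8.82 on the same arrays. LN stroma lay within 0.14 log2 units of MEF for Pcna and within 0.04 for Rfc5.

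Among the 6 polymerase and primase genes Prim1, the catalytic primase subunit, had the widest span, with 6.78 in LN stroma, 7.87 and 9.0 in antibody-treated and unstimulated BLS12, 6.55 and 6.27 in antibody-treated and unstimulated BLS4, and 7.25 in MEF. Unstimulated BLS12 stood 1.14 log2 units above its nearest array in this gene. Pola1, the catalytic subunit of polymerase α, had the narrowest, with 7.11 in LN stroma, 6.64 with and 7.44 without antibody in BLS12, 6.90 with and 6.70 without antibody in BLS4, and 7.31 in MEF. Pola2, its regulatory subunit, had 6.71 in LN stroma, 7.94 and 8.33 in antibody-treated and unstimulated BLS12, 7.07 and 6.78 in antibody-treated and unstimulated BLS4, and 7.50 in MEF. Pold1, the catalytic subunit of polymerase δ, had 6.90 in LN stroma, 7.52 with and 7.48 without antibody in BLS12, 6.92 with and 6.63 without antibody in BLS4, and 7.40 in MEF, with the BLS12 arrays highest and 0.04 log2 units apart. Pole, the catalytic subunit of the leading strand polymerase ε, ran from 4.95 in LN stroma to 7.18 in MEF. In LN stroma and unstimulated BLS4 it lay below the array median. Prim2, the large primase subunit, ran from 6.56 in unstimulated BLS4 to 7.73 in unstimulated BLS12.

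On the rows used, the 4 nucleotide supply genes were all lowest in LN stroma. Rrm2, the small subunit that makes ribonucleotide reductase active in S phase, had 6.45 in LN stroma, 7.75 and 8.80 in antibody-treated and unstimulated BLS12, 8.06 and 7.94 in antibody-treated and unstimulated BLS4, and 9.77 in MEF. MEF held the highest level of Rrm2, by 0.97 log2 units over unstimulated BLS12. Tk1, the cytosolic thymidine kinase of the salvage pathway, had 6.91 in LN stroma, 8.03 with and 8.71 without antibody in BLS12, 7.51 with and 7.29 without antibody in BLS4, and 8.05 in MEF. Rrm1, the large reductase subunit, ran from 8.88 in LN stroma to 10.76 in unstimulated BLS12, with 10.23 on both BLS4 arrays. Tyms, which makes thymidylate, ran from 6.14 in LN stroma to 7.95 in unstimulated BLS12. Outside LN stroma the levels of Tyms lay between 7.36 and 7.95.

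Fen1, the nuclease that trims Okazaki fragments, had 6.15 in LN stroma, 7.42 and 8.23 in antibody-treated and unstimulated BLS12, 6.80 and 6.32 in antibody-treated and unstimulated BLS4, and 7.44 in MEF. Lig1, the ligase that seals them, had 7.28 in LN stroma, 7.70 with and 8.26 without antibody in BLS12, 7.01 with and 6.90 without antibody in BLS4, and 7.94 in MEF. Both were highest in unstimulated BLS12. Chaf1b, a subunit of the histone chaperone CAF-1, had the widest span of all members, with 4.96 in LN stroma, 7.78 and 8.59 in antibody-treated and unstimulated BLS12, 7.02 and 6.39 in antibody-treated and unstimulated BLS4, and 7.53 in MEF. Uhrf1, which brings the maintenance DNA methyltransferase to new DNA, had 5.55 in LN stroma, 7.74 with and 8.33 without antibody in BLS12, 7.08 with and 6.30 without antibody in BLS4, and 8.0 in MEF. Chaf1a, the large CAF-1 subunit, had 6.34 in LN stroma, 7.34 and 7.76 in antibody-treated and unstimulated BLS12, 7.07 and 6.71 in antibody-treated and unstimulated BLS4, and 7.51 in MEF. All 3 chromatin genes were highest in unstimulated BLS12 and lowest in LN stroma, where Chaf1b and Uhrf1 lay below the array median. Ung, the glycosylase that removes uracil from DNA, had 6.32 in LN stroma, 6.59 with and 6.86 without antibody in BLS12, 6.53 with and 6.40 without antibody in BLS4, and 6.58 in MEF, the second narrowest span after Rfc1.

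**Figure D2:**
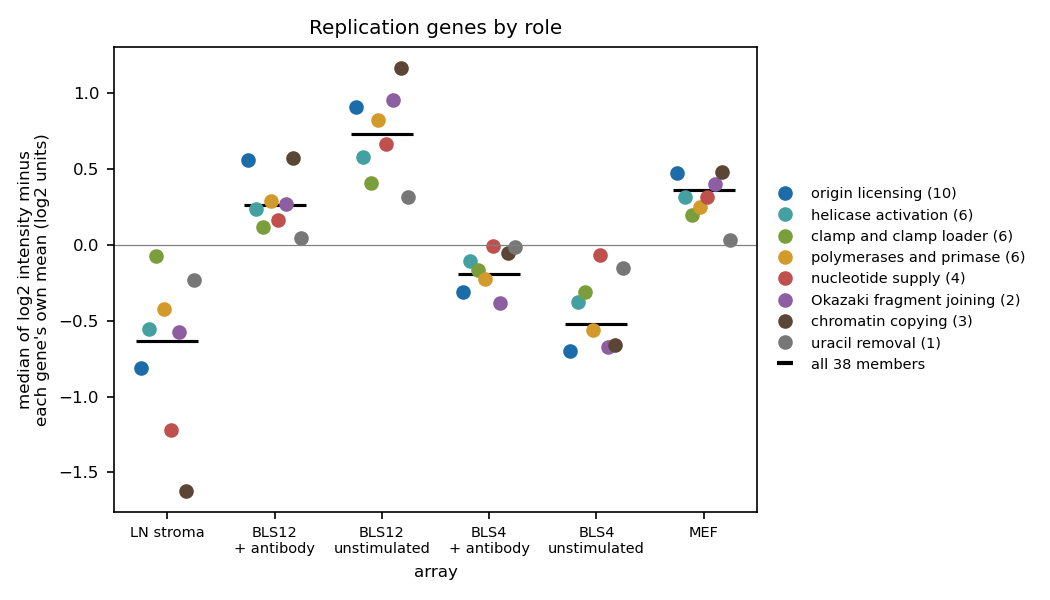
Median over the genes of each role (coloured points, number of genes in brackets) of log2 intensity minus each gene's own mean, by array, with the median of all 38 genes as a black bar. All roles lie above 0 in unstimulated BLS12, and the chromatin copying and nucleotide supply points lie lowest in LN stroma, at -1.62 and -1.22.

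The antibody comparison asks how the replication genes differed with LTβR stimulation in each line, with the line's own unstimulated array beside it. In BLS12 the members were lower with antibody and in BLS4 they were mostly higher. The median difference of the 38 members was -0.46 log2 units in BLS12 and 0.26 in BLS4, against -0.06 and 0.01 over all genes kept in each line. In BLS12, 37 of 38 members had a negative difference, where 57.1% of all genes kept did. In BLS4, 34 of 38 had a positive difference, where 52.8% did. With 1 array per line and condition neither line's difference has a replicate check.

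Most of these differences were small. On the rows used, the largest in BLS12 were in Prim1 (-1.14), Rrm2 (-1.05) and Rfc4 (-0.98). At least 2-fold lower were 2 of 38 members, Prim1 and Rrm2, against 2.45% of all genes kept. The row of Tk1 that was not used gave -1.17. Pold1 (0.04) was the 1 member with a positive difference in BLS12, and Mcm7 (-0.05) and Rfc1 (-0.07) were the nearest to 0 below it. By role the median difference in BLS12 ran from -0.72 in polymerases and primase to -0.36 in helicase activation, with Ung alone at -0.27. In BLS4 the largest differences were in Mcm7 (1.03), Mcm6 (0.99) and Uhrf1 (0.79), and 1 of 38 members, Mcm7, was at least 2-fold higher, against 0.983% of all genes kept. The 4 members with a negative difference in BLS4 were Tyms (-0.15), Orc6 (-0.11), Gins4 (-0.09) and Rrm1, whose arrays were level. The role with the highest median in BLS4 was chromatin copying (0.64), and the lowest was nucleotide supply (0.05).

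The directions were opposite in 33 members, negative in BLS12 and positive in BLS4, against 24.9% of the 11988 genes tested. After quantile normalization this held for 31 members (20.1% of genes tested) and after centring each array on its median for 34 (30.7%). The BLS12 difference was below the BLS4 difference in all 38 members as deposited, where 59.7% of genes tested had this order, and in 37 after quantile normalization. The gap had a median of -0.72 and ran from -1.56 in Mcm6 to -0.10 in Rfc1, and it was at least 1 log2 unit in 13 members, against 2.39% of genes tested. Whether the lines differed in response was not tested, since 1 array per line and condition leaves no residual for it.

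**Figure D3:**
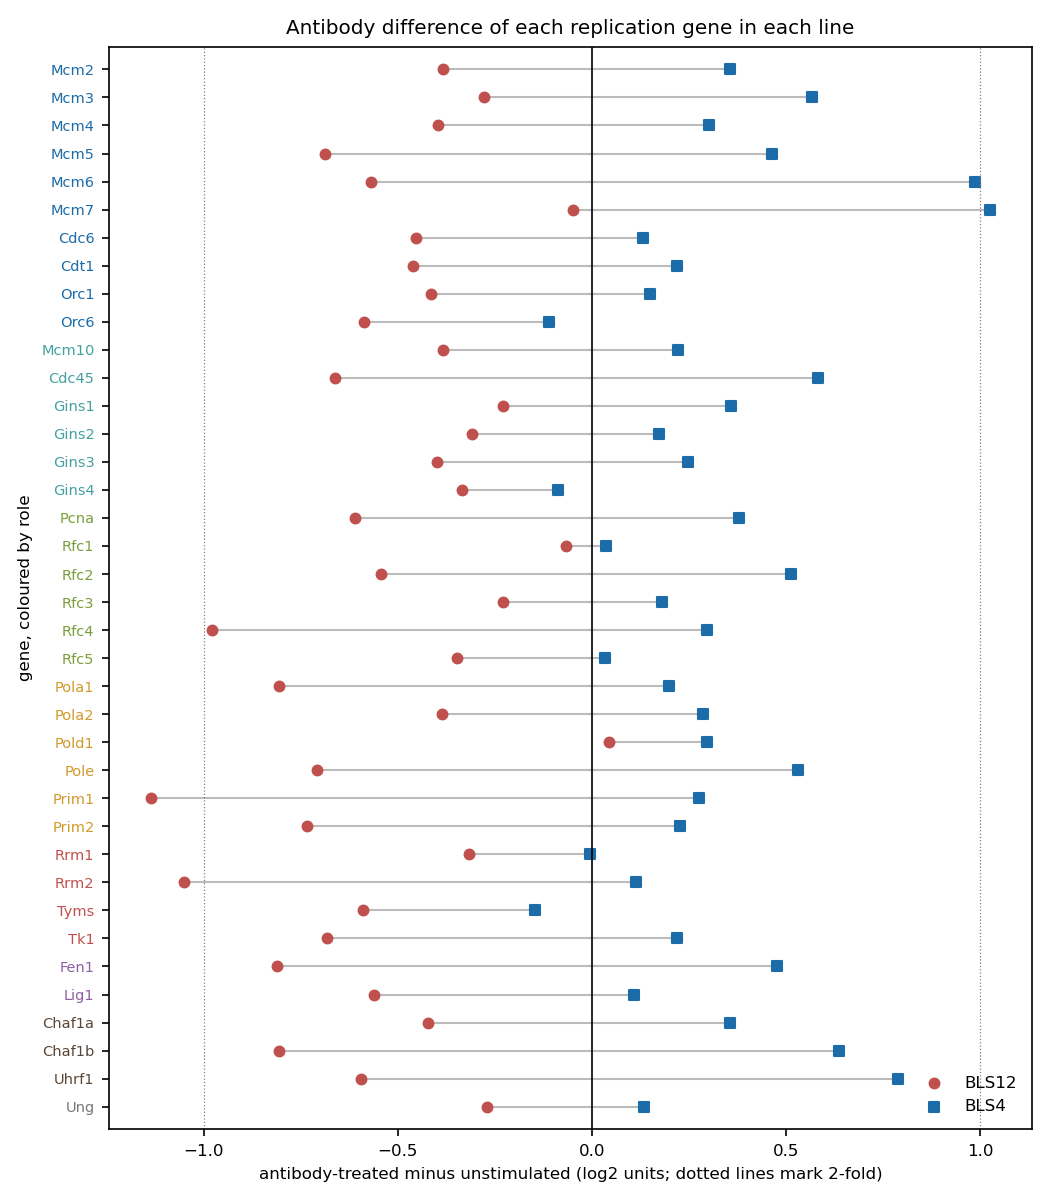
Log2 difference of each gene between the antibody-treated and the unstimulated array in BLS12 (red circles) and BLS4 (blue squares), with dotted lines at 2-fold. The circles lie left of the squares in all 38 genes, and only Prim1 and Rrm2 in BLS12 and Mcm7 in BLS4 pass 2-fold.

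Averaged over the lines, no member passed. In limma's additive model of line and antibody, 0 of 37 tested members were called at an adjusted p of 0.05, against 0.275% of the 11988 genes, and 0 members had an unadjusted p under 0.05. The averaged differences ran from -0.47 in Rrm2 (adjusted p = 0.59) to 0.49 in Mcm7 (adjusted p = 0.555), with a median of -0.08. That median is an average of opposite directions: without BLS4 it was -0.46 and without BLS12 0.28.

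A further question was how the lines differed in replication genes. All 38 members were higher in unstimulated BLS12 than in unstimulated BLS4, where 52.2% of all genes kept were, with a median difference of 1.23 log2 units, against 0.02 over all genes kept. At least 2-fold higher were 24 of 38, against 7.15% of all genes kept. With antibody on both lines the median difference was 0.50, 31 of 38 were higher in BLS12, where 49.2% of all genes kept were, and 4 of 38 were at least 2-fold higher, against 3.59%. Those 4 were Prim1 (1.32), Cdc6 (1.22), Mcm6 (1.1) and Mcm5 (1.01). These comparisons use the same 4 arrays as the antibody comparison.

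Over both conditions limma called 22 of 37 tested members higher in BLS12 and 0 lower, against 12.2% of genes called higher and 11.4% called lower. Licensing genes made up 9 of the 22, all that were tested. Prim1 differed most, by 2.02 log2 units (SE 0.33, adjusted p = 0.0124), followed by Mcm6 by 1.88 (SE 0.36, adjusted p = 0.0185) and Mcm5 by 1.59 (SE 0.28, adjusted p = 0.0152). The lowest adjusted p was that of Cdc6, 0.00581 in limma, at 1.51 (SE 0.18). The other licensing calls were Mcm7 (1.45), Mcm2 (1.32), Mcm3 (1.24), Orc6 (1.05), Mcm4 (1.00) and Cdt1 (0.96).

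Other roles were called in part. Fen1 (1.26) and Lig1 (1.03) were both called, as were Chaf1b (1.48) and Uhrf1 (1.35) among the chromatin genes, Pola2 (1.21) and Pold1 (0.73) beside Prim1, and Mcm10 (0.86), Gins1 (0.77) and Gins4 (0.58) among the activation genes. Rfc4 (1.47) and Rfc3 (0.68) were the 2 calls among 6 clamp and loader genes. Of the nucleotide supply genes Tk1 (0.97, SE 0.23, adjusted p = 0.0365) was called, while Rrm1 differed by 0.38 (adjusted p = 0.131), Rrm2 by 0.28 (adjusted p = 0.527) and Tyms by 0.21 (adjusted p = 0.403). Pcna differed by 0.24 (adjusted p = 0.541) and Pola1 by 0.24 (adjusted p = 0.539). The 2 conditions of a line stood in for its replicates. Without antibody as a term in the model 9 members were called in place of 22. The median line difference was 0.86, and it was 1.28 without the antibody-treated arrays and 0.52 without the unstimulated ones.

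Fresh LN stroma was compared with the cultured cells, from which it differed in several factors that cannot be told apart. Against MEF all 38 members were lower in LN stroma, where 56.8% of all genes kept were, with a median difference of -1.04 log2 units, against -0.11 over all genes kept, and 20 of 38 were at least 2-fold lower, against 12.1%. The largest differences were in Rrm2 (-3.32), Chaf1b (-2.57), Uhrf1 (-2.46), Pole (-2.23) and Mcm2 (-2.01). All 4 nucleotide supply genes and all 3 chromatin genes were at least 2-fold lower, as were 8 of 10 licensing genes, whereas 1 of 6 clamp and loader genes (Rfc3, -1.07) was. Against unstimulated BLS12 all 38 were again lower, where 56.7% of all genes kept were, with a median of -1.45, and 26 of 38 were at least 2-fold lower, against 12.7%. These comparisons share the LN stroma array.

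Against unstimulated BLS4 most members in LN stroma lay near the level of the line. The median difference was -0.12, against -0.08 over all genes kept, with 24 members lower and 14 higher in LN stroma, where 56.9% and 43.1% of all genes kept were. At least 2-fold lower were 4 of 38, a share near the 8.14% of all genes kept. The 4 were Rrm2 (-1.50), Chaf1b (-1.43), Tyms (-1.37) and Rrm1 (-1.35). The remaining nucleotide supply gene, Tk1, differed by -0.38, and on its unused row LN stroma (6.03) lay above unstimulated BLS4 (5.86). The nucleotide supply median was -1.36, while that of licensing was -0.11 and that of polymerases and primase 0.18. The differences between roles were not tested. Mcm6 (0.83), Rfc2 (0.63), Rfc4 (0.62) and Prim1 (0.51) were the members most above unstimulated BLS4 in LN stroma. No member was at least 2-fold higher in LN stroma than in MEF (10.2% of all genes kept), in unstimulated BLS12 (10.5%) or in unstimulated BLS4 (9.5%).

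The lines were also set beside MEF. In unstimulated BLS12 35 of 38 members were higher than in MEF, where 52.3% of all genes kept were, with a median of 0.37, and 2 were at least 2-fold higher, Prim1 (1.75) and Chaf1b (1.06), against 6.35% of all genes kept. Rrm2 (-0.97), Orc1 (-0.22) and Pole (-0.14) were lower. In unstimulated BLS4 37 of 38 members were lower than in MEF, where 51.3% of all genes kept were, with a median of -0.82, and 16 were at least 2-fold lower, against 7.78%. They included Mcm6 (-1.97), Rrm2 (-1.83), Pole (-1.80), Uhrf1 (-1.71), Mcm7 (-1.55) and Rfc4 (-1.47). Tyms (0.08) was the 1 member above MEF, and Gins4 (-0.01) was level with it. Both comparisons share the MEF array.

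**Figure D4:**
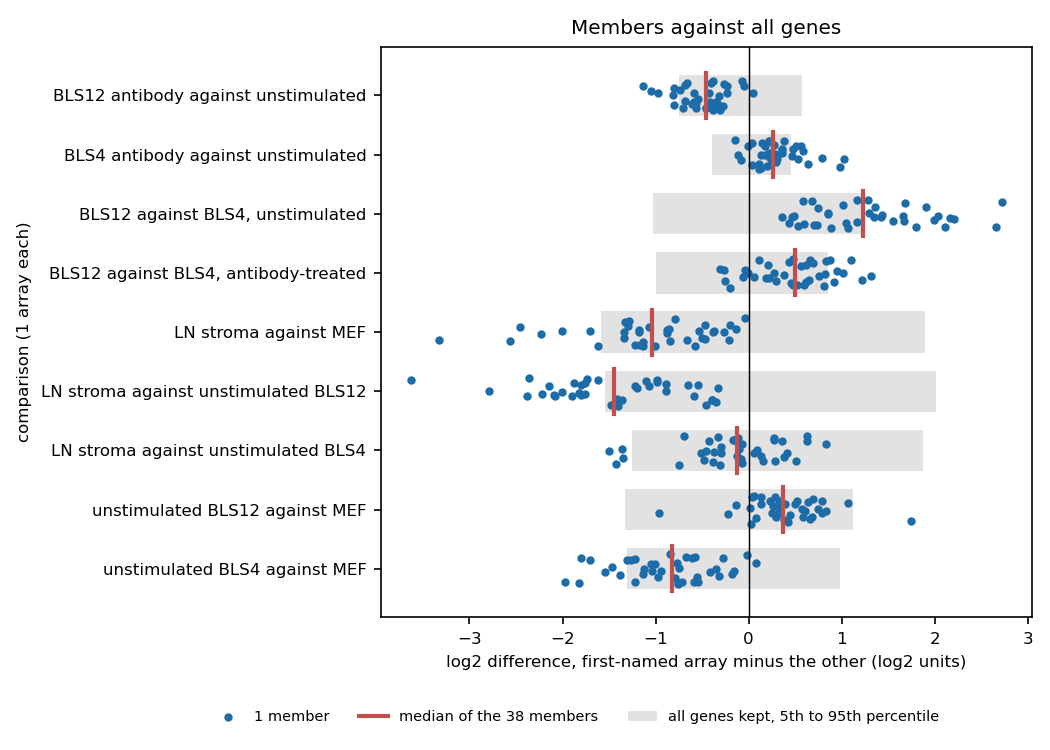
Log2 difference of each of the 38 genes (blue points, spread vertically for legibility) in 9 comparisons of 1 array with 1 array, with the member median as a red bar and the 5th to 95th percentile of all genes kept as a grey band. The medians lie at -0.46 and 0.26 for the antibody in BLS12 and BLS4, at 1.23 between the unstimulated lines and at -1.45 between LN stroma and unstimulated BLS12.

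Other replication genes showed which of these patterns reached beyond the 38. The list held 37 genes with a row, among them the remaining origin subunits, the single-strand binding complex RPA and the checkpoint proteins at the fork. In limma 14 of 32 tested were higher in BLS12 than in BLS4 and 0 lower, against 12.2% and 11.4% of all genes tested. For antibody 0 were called, against 0.275% of all genes tested, and 0 had an unadjusted limma p under 0.05, where 1396 of the 11988 genes did. Hells, a chromatin remodeller, differed most between the lines, by 2.04 (adjusted p = 0.0121), with 5.20 in LN stroma, 8.85 and 9.47 in antibody-treated and unstimulated BLS12, 7.51 and 6.72 in antibody-treated and unstimulated BLS4, and 8.33 in MEF. The calls also included Dna2, a nuclease of flap processing (1.57), Timeless, a fork protection protein (1.20), and Dbf4, the activator of the Cdc7 kinase (1.04). The median antibody difference of the 37 was -0.57 in BLS12, with 36 negative, where 57.1% of all genes kept were. In BLS4 it was 0.07, against 0.01 over all genes kept and 0.26 in the members. There 23 of the 37 were positive, where 52.8% of all genes kept were, so the rise in BLS4 hardly reached this list. The difference from the members was not tested. Against MEF 9 of the 37 were at least 2-fold lower in LN stroma, against 12.1% of all genes kept, led by Dbf4 (-3.61) and Hells (-3.13).

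A list of other nucleotide genes, for making purines, pyrimidines and folate carriers and for handling deoxynucleotides, lay nearer to 0 than the members with antibody in BLS12, a difference between lists that was not tested. The 20 genes with a row had a median antibody difference of -0.05 in BLS12 and 0.19 in BLS4. In BLS12 11 were negative, where 57.1% of all genes kept were, and 9 positive. In BLS4 16 were positive, where 52.8% of all genes kept were. In limma 0 of 20 passed for antibody, against 0.275% of all genes tested, with 3 at an unadjusted p under 0.05, where 1396 of the 11988 genes were. Ctps, which makes CTP, had 8.19 in LN stroma, 9.93 with and 9.11 without antibody in BLS12, 10.02 with and 8.84 without antibody in BLS4, and 9.82 in MEF. Its difference was positive in both lines, 0.83 in BLS12 and 1.18 in BLS4, with a limma average of 1.00 (adjusted p = 0.0931). Mthfd2, a mitochondrial folate enzyme, differed by -1.23 in BLS12 and -0.14 in BLS4. Between the lines 9 of 20 were higher in BLS12 in limma and 0 lower, against 12.2% and 11.4% of genes tested. Among the 9 were Mthfd1 (1.29), Pfas (1.18) and Ppat (1.11) of the folate and purine pathways.

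The regulators of S phase entry did not all share 1 direction. With antibody in BLS12, 18 of 23 were lower, where 57.1% of all genes kept were, and 5 were higher, with a median of -0.27. In BLS4 12 of 23 were higher, a share near the 52.8% of all genes kept, with a median of 0.06. Of 22 tested, 0 passed for antibody in limma, against 0.275% of all genes tested. An unadjusted limma p under 0.05 was found for 5, where 1396 of the 11988 genes had one. Cdk6, a kinase that inactivates the retinoblastoma protein, had 6.87 in LN stroma, 9.83 and 8.92 in antibody-treated and unstimulated BLS12, 8.50 and 6.21 in antibody-treated and unstimulated BLS4, and 9.59 in MEF, and the proto-oncogene Myc had 11.25 in LN stroma, 10.27 with and 9.43 without antibody in BLS12, 9.40 with and 7.73 without antibody in BLS4, and 9.50 in MEF. Both were higher with antibody in each line, with limma averages of 1.60 (adjusted p = 0.147) and 1.26 (adjusted p = 0.117). Ccne1, cyclin E1, which drives entry into S phase, had 6.11 in LN stroma, 7.83 and 8.91 in antibody-treated and unstimulated BLS12, 7.78 and 7.72 in antibody-treated and unstimulated BLS4, and 9.09 in MEF, a difference of -1.08 in BLS12 and 0.06 in BLS4. Ccne2, cyclin E2, differed by -1.21 in BLS12 and -0.10 in BLS4 and was not tested. E2f1, an activator of replication genes, differed by -0.76 in BLS12 and -0.15 in BLS4. Between the lines 6 of the 22 were higher in BLS12, against 12.2% of genes tested, among them Cdk6 (2.02), Cdk2 (1.28), Myc (1.28) and Mycn (1.20). Lower were 2 of the 22, Ccnd2 (-0.61) and Rbl2 (-0.55), a share near the 11.4% of genes tested.

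Inhibitors of the cyclin-dependent kinases had 6 genes with a row of their own, and Cdkn1a was not analysed here. Cdkn2b, which holds back Cdk4 and Cdk6, had 7.04 in LN stroma, 7.52 with and 7.74 without antibody in BLS12, 9.41 with and 10.09 without antibody in BLS4, and 9.87 in MEF. It was lower in BLS12 than in BLS4 by 2.12 log2 units in limma (a difference of -2.12, adjusted p = 0.00157), and Cdkn1b was higher by 0.56 (adjusted p = 0.0385). None of the 6 passed for antibody in limma, against 0.275% of all genes tested, and 2 had an unadjusted p under 0.05, where 1396 of the 11988 genes did. Between LN stroma and MEF the difference was -2.83 in Cdkn2b, -2.53 in Cdkn2a and 1.09 in Cdkn1b.

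In the intensities as deposited, mitosis genes had medians of the same sign as the members in each of the 9 comparisons. Their 24 genes had a median antibody difference of -0.92 in BLS12 and 0.41 in BLS4, and a median of -2.73 between LN stroma and MEF. The antibody directions were opposite in 23 of the 24, against 24.9% of genes tested. The BLS12 difference minus the BLS4 difference had a median of -1.37, and 19 reached -1 log2 unit, against 2.39%. Between the unstimulated lines the mitosis median was 1.82, and 22 were at least 2-fold higher in BLS12, against 7.15% of all genes kept. In unstimulated BLS12 against MEF their median was 0.18, where the members had 0.37, and in antibody-treated BLS12 against antibody-treated BLS4 it was 0.41, where the members had 0.50. Against unstimulated BLS4 the median in LN stroma was -1.13. At least 2-fold lower were 13 of 24, where 4 of 38 replication genes and 8.14% of all genes kept were. Mki67, a marker of cycling cells, had 5.91 in LN stroma, 7.93 and 8.77 in antibody-treated and unstimulated BLS12, 7.18 and 6.53 in antibody-treated and unstimulated BLS4, and 8.49 in MEF. Top2a, the topoisomerase that untangles chromosomes, had 5.67 in LN stroma, 8.98 with and 10.13 without antibody in BLS12, 7.67 with and 7.12 without antibody in BLS4, and 9.29 in MEF. In both, LN stroma was lowest and unstimulated BLS12 highest. The differences between the lists were not tested.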

How the data were processed

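Total RNA of the 6 samples was labelled and hybridised to single-colour Affymetrix arrays. The authors deposited 1 linear intensity per transcript cluster and array. Affymetrix Expression Console 1.1 is the tool named, per the submitters' processing notes. For the summary algorithm, the normalization and the build, the entry is "not given in the sources used here". In all, the table held 35557 rows with intensities from 3.55 upward, so log2 was taken without an offset. Array medians ran from 5.69 to 5.82. Rows with 1 gene (21789) covered 19938 genes, and the row with the highest mean was used. All members were matched to RefSeq by Entrez ID.

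The members and lists were chosen with earlier results of these data known. Values in all arrays are given for members called in limma, for the widest and narrowest span of each role and for the 3 largest antibody differences in each line. Other lists name calls, large differences and genes fixed by name.

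The additive model of line and antibody used limma 3.58.1 in R 4.3.3 (lmFit, eBayes, two-sided, Benjamini-Hochberg) on 11988 genes with at least 2 of 4 line arrays at or above the median. It left 1 residual degree of freedom, which is the disagreement of the 2 lines over the antibody. To this eBayes added 4.59 around an SD of 0.151 log2 units. The cell line pairs its own arrays and is a term of the model. Comparisons of 1 array with 1 array had no test, and all genes kept had at least 1 of the arrays at or above its median. The number of arrays limits the precision. Alternatives were other scalings, an offset of 16, the mean of a gene's rows, no filter, other folds and models without a term.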

Additional observations from a re-analysis of the deposited data

Results flagged for a closer look

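The antibody differences of the 2 lines had opposite directions, and the difference between the lines was not tested. The median over the 38 members of the BLS12 difference minus the BLS4 difference was -0.72 log2 units. In 13 members the directions were opposite and at least 1 log2 unit apart, where 2.39% of genes tested had a gap that wide in this order. A gap that wide held in 10 members after quantile normalization and 11 with 16 added before log2, against 2.13% and 2.05% of genes tested. It held in 16 after centring each array on its median and 15 with the mean of a gene's rows, against 3.15% and 2.38%. The pattern is not particular to the members. In mitosis genes the median gap was -1.37, and 19 of 24 were at least 1 log2 unit apart. In the 37 other replication genes the antibody median was -0.57 in BLS12 but 0.07 in BLS4, where 14 were negative, so opposite directions were less common there. The gap was -1.56 in Mcm6, -1.15 in Mcm5 and -1.07 in Mcm7 among the helicase ring genes, and -1.24 in Cdc45. It was -1.05 in Rfc2 and -1.27 in Rfc4 of the clamp loader, -1.01 in Pola1, -1.24 in Pole and -1.41 in Prim1 of the polymerases and primase, and -1.17 in Rrm2. Fen1 had -1.29, Chaf1b -1.44 and Uhrf1 -1.38. Each value rests on 4 arrays with none repeated.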

How the results depend on the processing

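Centring each array on its median, the mean of a gene's rows and no filter moved none of the counts or medians given for the members by more than the limits used, which were 1.5 times for a count and 0.151 log2 units for a median. With no replicate block, meaning no term for the other factor, 9 members were called between the lines in place of 22, and 0 for antibody as before. The line is the pair here. Leaving out 1 line put the median antibody difference between -0.46 and 0.28, where both lines gave -0.08, and leaving out 1 condition put the median line difference between 0.52 and 1.28, where both gave 0.86. Members at least 2-fold lower with antibody in BLS12 numbered 1 after quantile normalization and 1 with 16 added before log2, in place of 2, and those at least 2-fold higher in BLS4 numbered 0 and 0 in place of 1. In unstimulated BLS12 against MEF quantile normalization gave 1 lower in place of 0 and 1 higher in place of 2. At 1.5-fold 15 members were lower with antibody in BLS12 and 4 higher in BLS4, 17 were higher in BLS12 than in BLS4 with antibody, 3 were higher in LN stroma than in unstimulated BLS4, 1 was lower and 11 were higher in unstimulated BLS12 than in MEF, and 27 were lower in unstimulated BLS4 than in MEF. At 4-fold 6 were higher in unstimulated BLS12 than in unstimulated BLS4, 5 were lower in LN stroma than in MEF and 9 lower than in unstimulated BLS12, and 0 passed for the antibody in either line, between the treated lines, between LN stroma and unstimulated BLS4 or between an unstimulated line and MEF. The share of all genes past 1.5-fold or 4-fold was not computed. The counts at these folds show only how the member counts depend on the cut, not whether they exceed all genes. The table holds no detection call, so values below the array median, as for Orc1, are approximate.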

Other observations

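The 13 members with E2F letters in a promoter window had a median span of 1.73 log2 units over the 6 arrays and a median antibody difference of -0.45 in BLS12 and 0.25 in BLS4. The 18 without had a median span of 1.78, and -0.59 in BLS12 and 0.25 in BLS4. No test was run on these groups.

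Tk1 and Pcna each had 2 rows. The row of Tk1 that was not used differed by -1.17 with antibody in BLS12 and by 0.79 in BLS4, where the row used gave -0.68 and 0.22. On the unused row Tk1 would pass 2-fold in BLS12, beyond Prim1, with a wider gap between the lines than Mcm6. The ranking, the 2-fold count and the gap range thus depend on the row. The unused row of Tk1 had 5.86 in unstimulated BLS4, 6.03 in LN stroma and 8.34 in unstimulated BLS12. Its lowest array and the count past 4-fold between the unstimulated lines therefore also depend on the row. The Pcna row that was not used gave -0.62 and 0.40, where the row used gave -0.61 and 0.38.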
